A study of Homo sapiens with 12 samples.

Results

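The transcripts described here encode the 6 collagen receptors of the integrin and discoidin domain receptor families: the integrin alpha subunits ITGA1, ITGA2, ITGA10 and ITGA11, and the receptor tyrosine kinases DDR1 and DDR2. They were chosen by name from the 23368 gene symbols of the deposited table. The rule used no measured value, though earlier results of these data were known. Each member was read from its single entry on an ordinary chromosome. Of the 6, ITGA1, ITGA2, ITGA10 and DDR1 had enough counts to be tested, while ITGA11 and DDR2 did not pass the default filter on low counts in any comparison and are given by their counts.

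RNA was sequenced from 2 human breast cancer cell lines held for 3 days in 3D hydrogels of poly(ethylene glycol) joined by a crosslinker that cells can degrade. MDA-MB-231 is an estrogen receptor negative, mesenchymal-like line, T47D is an estrogen receptor positive, luminal line, and the labels give a pleural effusion as the origin of both, with adenocarcinoma for the former and ductal carcinoma for the latter. The gels carried either GFOGER, a peptide mimic of collagen, or IKVAV, a peptide mimic of laminin, and no gel without peptide was sequenced, so each difference between matrices is GFOGER relative to IKVAV. Every replicate pooled the RNA of 3 gels, and all gels were dissolved with collagenase before RNA was taken. For MDA-MB-231, 3 libraries with GFOGER and 2 with IKVAV were analysed, and for T47D 3 libraries with either peptide. A further sample of MDA-MB-231 cells with IKVAV was not analysed here. The labels do not say whether replicates came from separate cultures, so p-values measure the spread between these samples, which may be technical.

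Total counts were 14338238 to 18452145 per library, and 3 counts corresponded to 0.171 to 0.203 cpm, the count scaled to a common library size after TMM normalization. Replicate 3 of MDA-MB-231 with GFOGER and replicate 3 of T47D with IKVAV stood apart from their groups, with a chi-square per gene of 16.4 to 18.6 against the other replicates of their group, compared with 2.51 to 9.92 for all other replicate pairs. Members are therefore also given without these libraries in the peptide comparisons. All 6 luminal markers were lower and all 5 mesenchymal-like markers were higher in MDA-MB-231 than in T47D cells in both matrices.

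Integrins are heterodimers of an alpha and a beta subunit. The 4 alpha subunits studied here carry an inserted I domain that binds collagen, and each pairs with the beta subunit ITGB1. ITGA1 and ITGA2 are the alpha subunits of the integrins that the study names as receptors of the GFOGER sequence, ITGA10 is best known from cartilage, and ITGA11 from fibroblasts. DDR1 and DDR2 bind native collagen through a discoidin domain rather than through the integrin recognition sequence, and DDR1 is typical of epithelial cells whereas DDR2 is typical of mesenchymal cells.

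On hg19, the deposited entries were chr5:52084136-52249485 for ITGA1, chr5:52285156-52390609 for ITGA2, chr1:145524990-145543868 for ITGA10, chr15:68594042-68724492 for ITGA11, chr6:30851861-30867933 for DDR1 and chr1:162602228-162750247 for DDR2. ITGA1 and ITGA2 are neighbours separated by 35670 bases. The bases upstream of the 3 alpha subunit genes that passed the filter are shown, because ITGA1 and its neighbour ITGA2 moved in opposite directions in MDA-MB-231 cells and ITGA10 moved with ITGA1. The windows run from 250 to 66 bases before the start annotated by RefSeq on GRCh38.p14, which leaves out the transcribed bases of alternative starts. They are read 5′ to 3′ on the strand of the gene, with capitals for matches to 4 motifs searched on both strands: GGGCGG (GC box), TGACTCA (AP-1), GGAATG (TEAD) and CACCTG (E-box).
ITGA1, chr5:52787666-52787850, plus strand: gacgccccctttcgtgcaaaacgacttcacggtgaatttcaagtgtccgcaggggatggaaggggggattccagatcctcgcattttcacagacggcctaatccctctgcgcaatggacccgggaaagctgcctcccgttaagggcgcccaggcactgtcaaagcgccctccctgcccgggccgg
ITGA2, chr5:52989102-52989286, plus strand: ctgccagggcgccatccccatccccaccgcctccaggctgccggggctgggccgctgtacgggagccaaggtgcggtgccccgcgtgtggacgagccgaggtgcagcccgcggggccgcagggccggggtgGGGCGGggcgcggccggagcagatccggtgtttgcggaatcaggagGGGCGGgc
ITGA10, chr1:145910116-145910300, minus strand: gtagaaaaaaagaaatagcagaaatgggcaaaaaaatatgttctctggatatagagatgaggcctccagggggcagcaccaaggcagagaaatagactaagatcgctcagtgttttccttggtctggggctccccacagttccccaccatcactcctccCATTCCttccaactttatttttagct

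The ITGA2 window held GGGCGG at 119 to 114 and at 73 to 68 bases before the start, and 77.8% of its bases were G or C. The ITGA10 window held GGAATG on the opposite strand at 91 to 86 bases before the start, and 45.4% of its bases were G or C. The ITGA1 window held none of the 4 motifs, with 61.6% G or C. Among 34943 windows of this length, 32% held GGGCGG, 2.92% TGACTCA, 9.02% GGAATG and 14% CACCTG. A match is only a description of the letters. RefSeq lists the same window for ITGA1 and for PELO, a ribosome rescue factor whose gene starts at the same base in RefSeq. The deposited hg19 entries start at different bases, 52084136 for ITGA1 and 52083774 for PELO.

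Levels of different genes were compared as RPKM, computed from the counts, the deposited gene lengths and the TMM-adjusted library sizes. The most abundant collagen receptor differed between the cell lines. In MDA-MB-231 cells with GFOGER, ITGA2 led with an RPKM of 122 ± 6.7 (SD, n = 3), followed by ITGA1 at 27.6 ± 3.05 and DDR1 at 23.8 ± 3.71, whose ranges overlapped, and by ITGA10 at 2.21 ± 0.0188. In MDA-MB-231 cells with IKVAV, ITGA1 led with an RPKM of 119 ± 2.98 (SD, n = 2), followed by ITGA2 at 91.5 ± 1.22, DDR1 at 49.9 ± 1.68 and ITGA10 at 12.3 ± 0.0625, with no overlap between neighbours in this order.

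T47D cells had DDR1 as the leading collagen receptor in both matrices. The DDR1 RPKM was 153 ± 13.2 (SD, n = 3) with GFOGER and 144 ± 7.33 (SD, n = 3) with IKVAV, above ITGA2 at 6.49 ± 0.25 and 6.49 ± 0.587. ITGA10 came next with an RPKM of 1.92 ± 0.178 and 2.38 ± 0.782, and ITGA1 after it with 0.18 ± 0.0307 and 0.189 ± 0.0685. The ranges of these 4 genes did not overlap within either matrix.

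**Figure D1:**
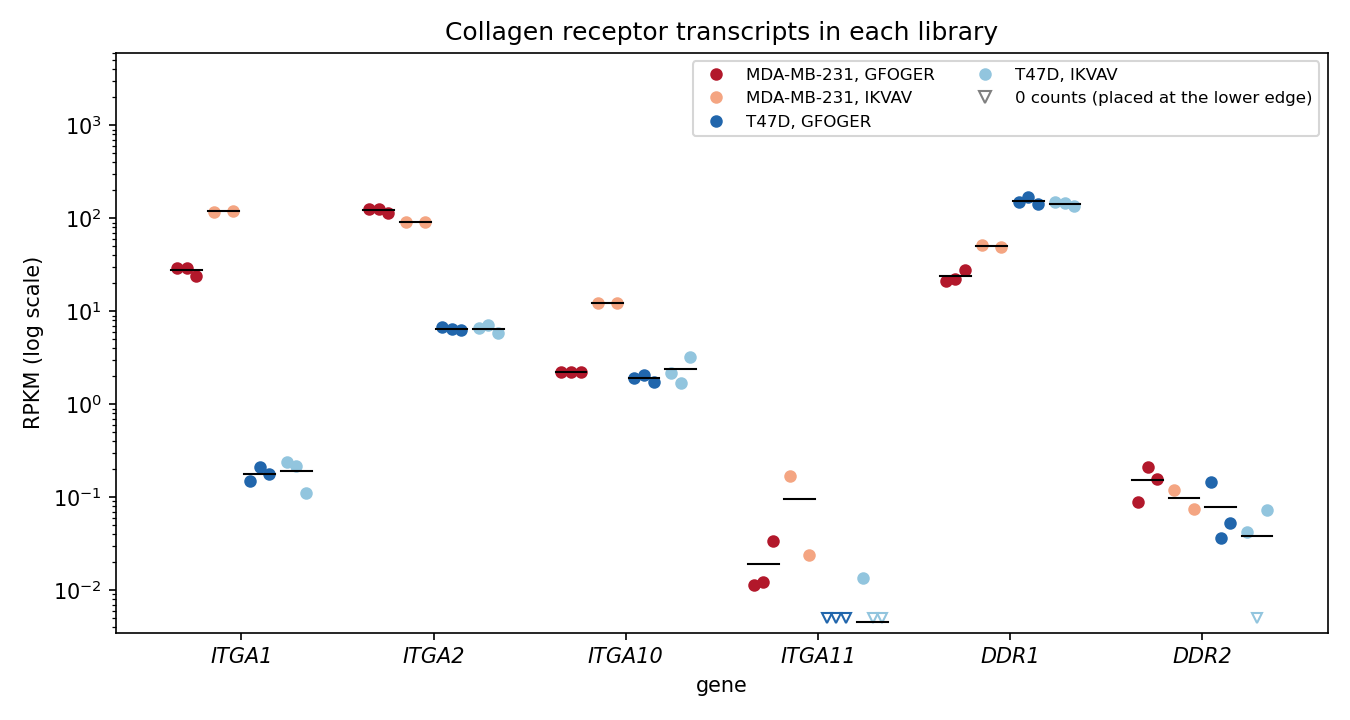
RPKM of the 6 collagen receptors on a log axis, 1 point per library, coloured by cell line and peptide, with a black line at the group mean and open triangles for libraries with 0 counts. ITGA1 spans from about 0.111 in T47D to 121 in MDA-MB-231 cells, DDR1 is highest in T47D cells, and ITGA11 and DDR2 lie under 0.21 in every library.

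ITGA11 and DDR2 were close to the detection limit in both cell lines. ITGA11 had 1, 1 and 3 counts in MDA-MB-231 with GFOGER, 13 and 2 counts in MDA-MB-231 with IKVAV, and 0 counts in 5 of the 6 T47D libraries, with 1 count in the other. DDR2 had 5, 11 and 9 counts in MDA-MB-231 with GFOGER, 6 and 4 with IKVAV, and 0 to 8 counts in T47D libraries. The values of both genes overlapped between the matrices in each cell line, and no difference between matrices was detectable at this depth. Without MDA-MB-231 IKVAV replicate 2 the filter let ITGA11 through, and its log2 fold change of GFOGER against IKVAV was then -3.02 (edgeR adjusted p = 0.0279), which rests on the 13 counts of the remaining IKVAV library. ITGA11 was also called between the cell lines in that setting, at 3.80 in GFOGER (adjusted p = 0.0484) and 4.90 in IKVAV (adjusted p = 0.001), against T47D libraries with 0 or 1 count.

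The first comparison addressed how collagen receptor transcripts of MDA-MB-231 cells differ between the collagen and laminin mimics. All 4 tested members passed an adjusted p of 0.05 (edgeR quasi-likelihood test with Benjamini-Hochberg adjustment), against 42.9% of the 14092 genes tested, and 3 of them also passed a 2-fold change, against 9.57% of all genes. ITGA1, ITGA10 and DDR1 were lower with GFOGER, where 21.4% of all genes were lower, and ITGA2 was higher, where 21.4% of all genes were higher. The median log2 fold change of the 4 was -1.59, beside 0.00386 over all genes tested. The members passing the test thus included both integrin alpha subunits named as GFOGER receptors, and these moved in opposite directions.

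ITGA1, the alpha subunit that pairs with ITGB1 as a receptor of collagen IV among others, had 142, 140 and 116 cpm in the 3 GFOGER libraries and 561 and 581 cpm in the 2 IKVAV libraries. Every GFOGER library was below every IKVAV library. The level was 4.33-fold lower with GFOGER (log2 fold change -2.11, SE 0.098, adjusted p = 1.29e-10 by edgeR), and it was -2.02 without the GFOGER library that stood apart.

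ITGA10 had 11.4, 11.5 and 11.4 cpm with GFOGER and 63.6 and 63.2 cpm with IKVAV. The 2 groups did not overlap, and replicates within each were nearly equal. Its change was the largest among the members, 5.57-fold lower with GFOGER (log2 fold change -2.48, SE 0.12, adjusted p = 1.89e-10), and it was -2.47 without the GFOGER library that stood apart.

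DDR1 had 90.1, 92.5 and 118 cpm with GFOGER and 215 and 205 cpm with IKVAV. The higher GFOGER value came from the library that stood apart, and still lay below both IKVAV libraries. DDR1 was 2.1-fold lower with GFOGER (log2 fold change -1.07, SE 0.109, adjusted p = 1.02e-06), with a log2 fold change of -1.20 without that library. The change exceeded the 2-fold limit only narrowly, and with the 2-fold threshold placed inside the test DDR1 was no longer called.

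ITGA2, the other alpha subunit named for GFOGER, had 979.8, 997 and 898 cpm with GFOGER and 713 and 727 cpm with IKVAV. All GFOGER libraries exceeded both IKVAV libraries. The difference was 1.32-fold higher (log2 fold change 0.40, SE 0.082, adjusted p = 0.000843), below the 2-fold limit, and the log2 fold change was 0.45 without the GFOGER library that stood apart. ITGB1, the beta subunit shared by the 4 alpha subunits, had 1808, 1848 and 1557 cpm with GFOGER and 1679 and 1639 cpm with IKVAV. These values overlapped, and the ITGB1 log2 fold change was 0.06 (SE 0.085, edgeR adjusted p = 0.597). In T47D cells it was -0.04 (SE 0.084, edgeR adjusted p = 0.917). By quantitative PCR relative to cells on plates, the study reported ITGB1 lower with GFOGER in MDA-MB-231 and higher in T47D cells. The reason for this difference between assays was not tested.

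**Figure D2:**
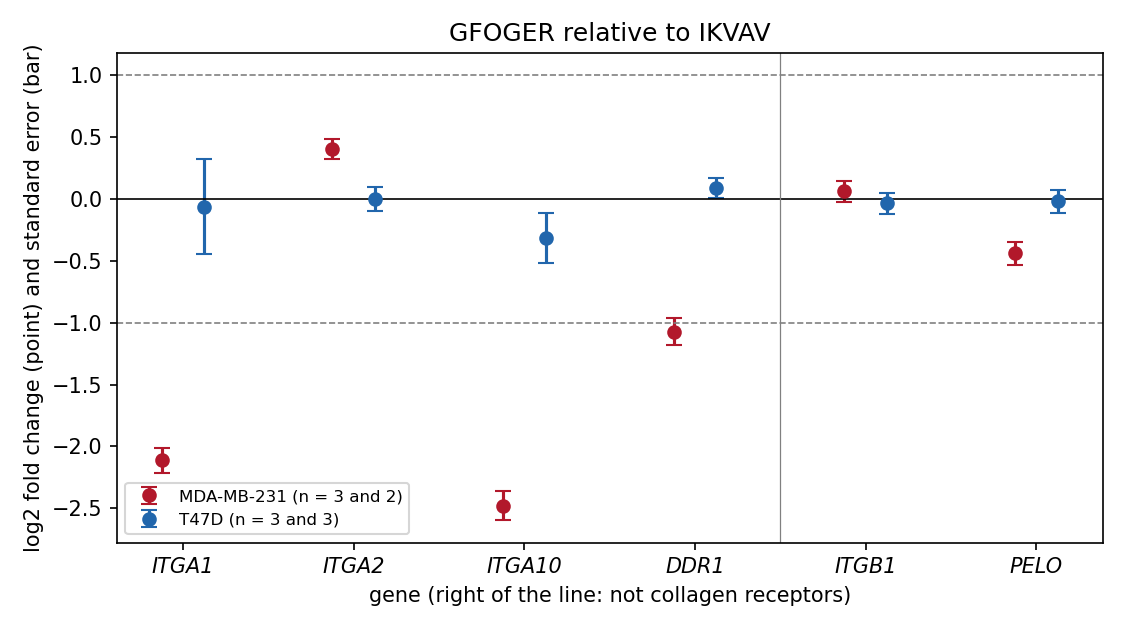
Log2 fold change of GFOGER relative to IKVAV (points) with standard error (bars) for each tested member and for ITGB1 and PELO, in MDA-MB-231 (red) and T47D (blue) cells; dashed lines mark 2-fold. ITGA1, ITGA10 and DDR1 lie below -1 in MDA-MB-231 cells while every T47D point lies between -0.32 and 0.09.

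In T47D cells, 0 of the 4 tested members passed an adjusted p of 0.05, where 0.044% of the 13642 genes tested did, and 0 passed the added 2-fold limit, where 0.022% did. At an unadjusted p of 0.05, 0 of the 4 members passed as well, and DESeq2 called 0 of them. The median log2 fold change of the 4 was -0.03, beside -0.00103 over all genes tested. ITGA2 had 53.1, 51 and 49.2 cpm with GFOGER and 51.7, 55.4 and 46.2 with IKVAV, and DDR1 had 635, 704 and 595 cpm with GFOGER and 635, 609 and 574 with IKVAV. For both genes the libraries of the 2 matrices overlapped, with log2 fold changes of 0.00 (SE 0.095) and 0.09 (SE 0.082), or -0.07 and 0.05 without the IKVAV library that stood apart.

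ITGA10 had 9.99, 10.8 and 8.94 cpm in the T47D GFOGER libraries and 11.3, 8.84 and 16.7 cpm in the IKVAV libraries. The value of 16.7 belonged to the library that stood apart. The log2 fold change was -0.32 (SE 0.2, adjusted p = 0.593), and it was -0.03 without that library (adjusted p = 0.948). Without it, 1054 of 13830 genes (7.62%) passed an adjusted p of 0.05, and the 4 tested members still did not. ITGA1 had 12, 17 and 15 counts with GFOGER and 17, 17 and 9 with IKVAV, so that its log2 fold change of -0.06 (-0.34 without that library) had an SE of 0.385, and its direction changed when single libraries were left out.

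The response to the peptide differed between the cell lines for all 4 tested members by a test of the interaction (adjusted p below 0.05, against 21% of the 15320 genes tested), and for 3 of them by more than 2-fold, against 6.42%. With the 2-fold threshold inside the test that count was 1, with ITGA1 at an adjusted p of 0.0555 and DDR1 at 1. The difference of log2 fold changes, MDA-MB-231 minus T47D, was -2.05 for ITGA1 (SE 0.335, adjusted p = 0.00026), -2.15 for ITGA10 (SE 0.245, adjusted p = 5.41e-06) and -1.15 for DDR1 (SE 0.142, adjusted p = 1.32e-05). For ITGA2 it was 0.41 (SE 0.119, adjusted p = 0.0182), and this call was lost when GFOGER replicate 1 or 2 or IKVAV replicate 1 or 2 of MDA-MB-231, or IKVAV replicate 2 of T47D, was left out, with adjusted p from 0.0576 to 0.0795. Without T47D IKVAV replicate 3 the interactions were -1.77 for ITGA1, -2.45 for ITGA10, -1.12 for DDR1 and 0.48 for ITGA2.

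Between the cell lines, ITGA1 and ITGA2 were higher and DDR1 lower in MDA-MB-231 than in T47D cells in both matrices, and ITGA10 was higher in 1 of them. In GFOGER, 3 of the 4 tested members passed an adjusted p of 0.05 (79.5% of all genes did) and the same 3 passed the 2-fold limit (46.9% did). In IKVAV all 4 passed both limits, against 77.3% and 45.9% of all genes. The counts past the adjusted p are read against these high shares of all genes, and the sizes of the differences follow for each member.

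ITGA1 had 12 to 17 counts in each T47D library with GFOGER and 2031 to 2479 counts in MDA-MB-231 with GFOGER, a log2 fold change of 7.25 (SE 0.161, edgeR adjusted p = 5.91e-19). In IKVAV the log2 fold change was 9.30 (SE 0.166, adjusted p = 5.52e-20). Both rest on 9 to 17 counts per T47D library. ITGA2 was 18.8-fold higher in MDA-MB-231 cells with GFOGER (log2 fold change 4.23, SE 0.088) and 14.1-fold higher with IKVAV (3.82, SE 0.091).

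DDR1 was lower in MDA-MB-231 than in T47D cells by 6.43-fold with GFOGER (log2 fold change -2.68, SE 0.101) and 2.89-fold with IKVAV (-1.53, SE 0.111). Every T47D library, at 574 to 704 cpm, lay above every MDA-MB-231 library, at 90.1 to 215 cpm. ITGA10 did not pass the test between the lines with GFOGER, at 11.4 to 11.5 cpm against 8.94 to 10.8 cpm (log2 fold change 0.21, SE 0.173, adjusted p = 0.274), although the ranges did not overlap. In IKVAV it was 5.14-fold higher in MDA-MB-231 cells (log2 fold change 2.36, SE 0.173, adjusted p = 1.54e-10).

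**Figure D3:**
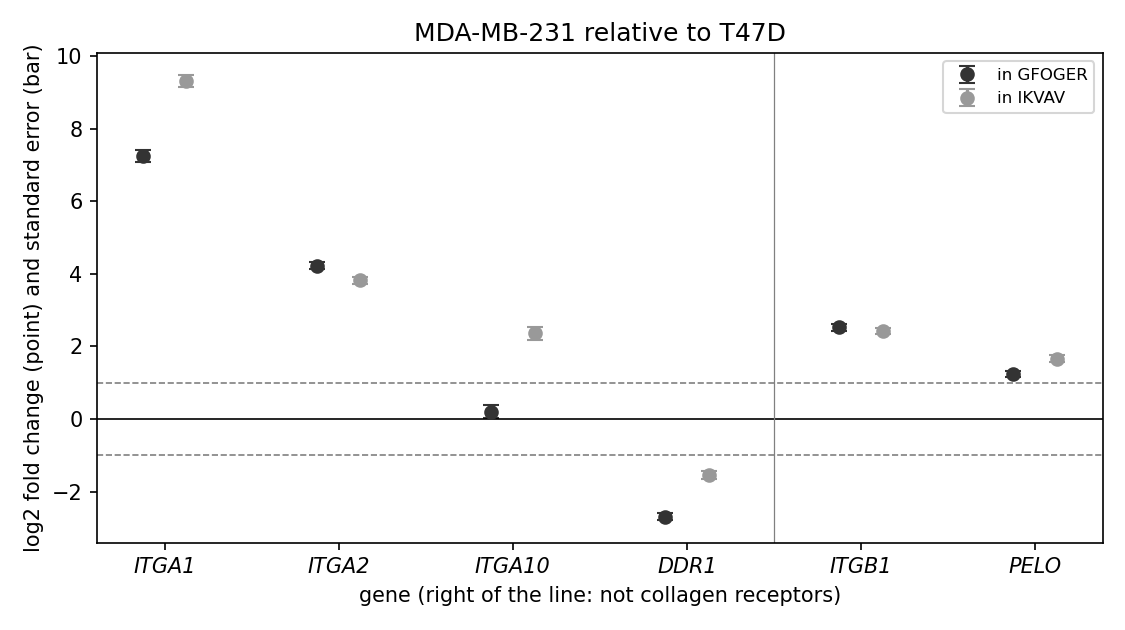
Log2 fold change of MDA-MB-231 relative to T47D (points) with standard error (bars) in GFOGER (dark) and IKVAV (light) gels; dashed lines mark 2-fold. ITGA1 and ITGA2 lie above 3.8 in both gels, DDR1 lies below -1.5, and ITGA10 is near 0 in GFOGER and above 2 in IKVAV.

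The makeup of the 4 alpha subunits, as shares of their summed RPKM, changed with the matrix in MDA-MB-231 cells. ITGA2 made up 79.7%, 80.1% and 81.2% with GFOGER and 41.2% and 40.9% with IKVAV, while ITGA1 made up 18.9%, 18.5% and 17.2% with GFOGER and 53.1% and 53.6% with IKVAV. The summed RPKM was 152 ± 9.7 (SD, n = 3) with GFOGER and 223 ± 4.04 (SD, n = 2) with IKVAV. ITGA2 and ITGA1 crossed over per length, but by counts alone ITGA2 exceeded ITGA1 in both, with a count ratio of 6.92 to 7.77 with GFOGER and 1.25 to 1.27 with IKVAV, so the order rests on the deposited lengths and the change of ratio does not. With 3 against 2 libraries an exact permutation test cannot go below p = 0.1, the value it gave for each of these shares (two-sided, adjusted p = 0.126 over 24 comparisons).

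T47D cells had a small summed RPKM of 8.59 ± 0.373 (SD, n = 3) with GFOGER and 9.07 ± 0.136 (SD, n = 3) with IKVAV, of which ITGA2 made up 73.8% to 76.6% and 63.7% to 78.5%. ITGA10 took 21.2% to 23.8% with GFOGER and 19.1% to 35.1% with IKVAV, its highest share being in the library that stood apart. ITGB1 RPKM exceeded the summed RPKM of the 4 alpha subunits by 2.71- to 2.86-fold in MDA-MB-231 with GFOGER, 1.78- to 1.87-fold with IKVAV, and 7.57- to 9.97-fold in T47D cells. ITGB1 was thus above the collagen-binding alpha subunits in all 11 libraries.

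**Figure D4:**
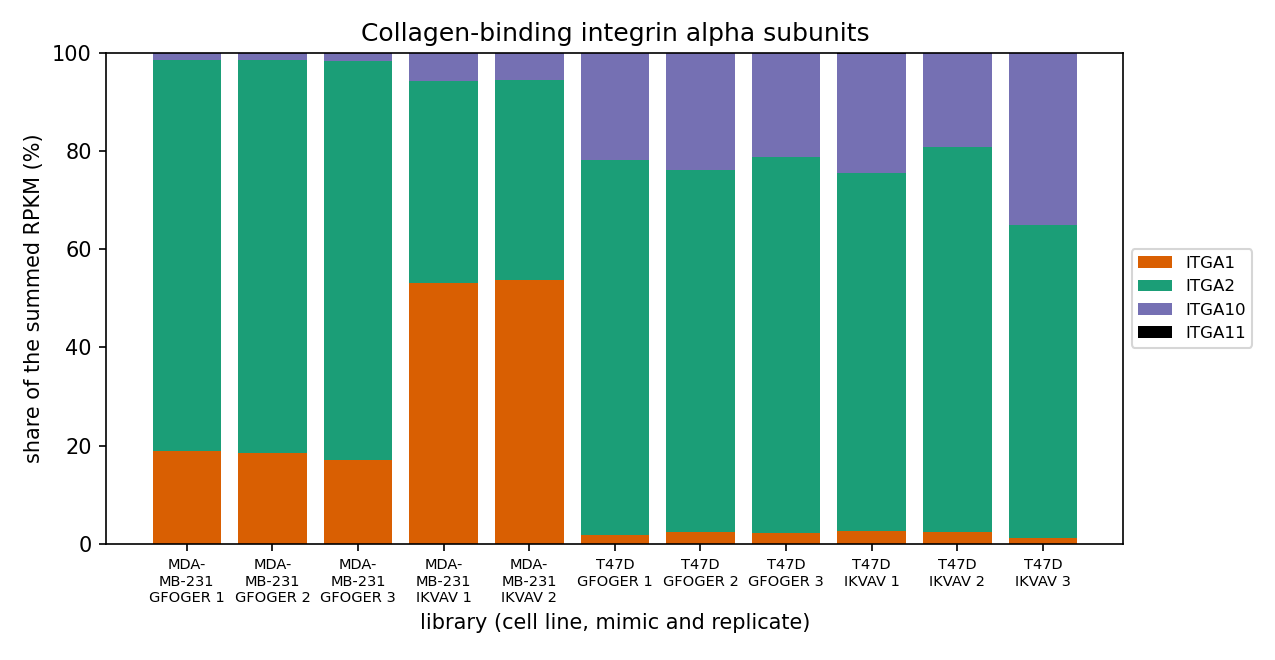
Share of the summed RPKM taken by each collagen-binding alpha subunit, 1 stacked bar per library from 0% to 100%. ITGA1 rises from under 19% in MDA-MB-231 with GFOGER to over 53% with IKVAV, while ITGA2 is the main part of every T47D bar.

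Neighbouring pathway genes were counted by lists chosen with earlier results known. In MDA-MB-231 with GFOGER against IKVAV, where 42.9% of all genes passed an adjusted p of 0.05, 21.4% in each direction, 2 of the 6 tested other collagen-binding receptors fell and 1 rose (50% in all). MRC2, an endocytic collagen receptor, fell from 147 to 55.6 cpm (log2 fold change -1.41, SE 0.11), and GP6, the platelet collagen receptor, fell by 1.09 on the log2 scale at group means under 2 cpm (edgeR adjusted p = 0.0497). Both passed the 2-fold limit, but the list's count past that limit was 1 with DESeq2, with all 4 groups in 1 fit, with at least 10 counts in every library and with the 2-fold threshold inside the test. Among 8 beta subunits, 4 fell and 1 rose (62.5% in all). ITGB8 at -1.72 and ITGB7 at -1.48 were past the 2-fold limit, which 9.57% of all genes passed. ITGB8 had 6.64 cpm with GFOGER against 21.7 with IKVAV, while ITGB7 was low, at 0.657 against 1.85 cpm. Not all of these calls held when either IKVAV library was left out. Of 6 tested alpha subunits that do not bind collagen, 2 rose and 0 fell (33.3% in all), the larger being the laminin receptor subunit ITGA6 at 1.19 (945 against 413 cpm).

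Of 11 tested collagen chains in MDA-MB-231 cells 2 rose and 3 fell, and the 45.5% that passed lay near the 42.9% of all genes. Of these COL1A2, a chain of type I collagen, passed the 2-fold limit at -1.12 but not without IKVAV replicate 1. Of 12 integrin activators and inhibitors 7 rose and 0 fell (58.3% in all, where 21.4% of all genes rose), led by the kindlin FERMT1 at 1.24. Of 12 tested discoidin domain receptor partners 6 rose and 1 fell (58.3% in all), and of 11 focal adhesion adaptors and kinases 3 rose and 1 fell (36.4% in all), none by over 2-fold. In T47D cells 0 genes of any of these lists passed the test, where 0.044% of all genes did. Without the IKVAV library that stood apart, 1 beta subunit was called beyond 2-fold. In that setting 7.62% of all genes passed an adjusted p of 0.05 at any fold change. The fibroblast markers PDGFRB (4.83 against 11.7 cpm) and LUM (1.35 against 2.96 cpm) also fell with GFOGER in MDA-MB-231 cells, while PDGFRA and DCN had at most 5 counts in any library. The summed level of the 4 fibroblast markers was 5.77 to 6.92 cpm with GFOGER and 12.8 to 17.0 cpm with IKVAV, and in T47D cells it was at most 0.536 cpm. The summed level of the 5 mesenchymal-like markers was 5294 to 5814 cpm with GFOGER and 3294 to 3337 cpm with IKVAV in MDA-MB-231 cells. Of these 5, VIM, AXL, CAV1 and MSN rose with GFOGER, while ZEB1 fell from 147 to 112 cpm (log2 fold change -0.40, adjusted p = 0.00246). Of the 6 luminal markers 1 passed, CDH1, which fell by 0.97 on the log2 scale (edgeR adjusted p = 0.00594), from 4.77 to 2.44 cpm. In T47D cells CDH1 had 1015 cpm with GFOGER and 1035 cpm with IKVAV. The part of these markers in the results was not tested.

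Summed leukocyte markers reached 11.5 cpm in MDA-MB-231 cells, nearly all from CD14, and the 1 marker tested did not pass. Summed endothelial markers were 8.34 to 9.91 cpm with GFOGER and 14.4 to 14.8 cpm with IKVAV, nearly all from PECAM1, which fell by 0.70 on the log2 scale with GFOGER (adjusted p = 0.00174) and whose part in the results was not tested. CD3E, CDH5 and VWF had at most 4 counts in any library. As each library pools whole cultures, a lower level in every cell and a smaller share of expressing cells cannot be told apart.

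Between the cell lines, the collagen chains COL4A2 and COL5A1 were higher in MDA-MB-231 cells, with log2 fold changes of 9.06 and 8.48 in GFOGER and 8.77 and 8.98 in IKVAV, on at most 9 and 20 counts in any T47D library. COL4A1 had up to 1252 counts in MDA-MB-231 libraries and at most 2 in T47D libraries. Other chains went the opposite way: COL1A1 was at -2.38 in GFOGER and -1.80 in IKVAV, and COL5A2 at -1.98 and -1.95. Among 12 tested collagen chains, 6 were called above and 3 below the T47D level in GFOGER, against 46.9% of all genes called. The counts in IKVAV were 7 above and 2 below, against 45.9%. Of 13 tested discoidin domain receptor partners, 4 were called higher and 2 lower in GFOGER, where 46.9% of all genes were called. In IKVAV 4 partners were called higher and 3 lower, where 45.9% of all genes were called. MMP14, a membrane collagenase listed as a DDR1 partner, was at 9.51 in GFOGER and 8.84 in IKVAV. It had at most 40 counts in any T47D library. PPP1R1B was at -4.52 in GFOGER and -3.42 in IKVAV, on at most 3 counts in any MDA-MB-231 library. ITGB1, at 2.53 with GFOGER and 2.42 with IKVAV, differed by less than ITGA1 and ITGA2.

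The genes most like each tested member in log2 cpm across the 11 libraries are named as a description, since the libraries fall into separate clusters. The cell lines lie apart for ITGA1, ITGA2 and DDR1, while for ITGA10 the 2 MDA-MB-231 IKVAV libraries lie above all others. For ITGA1 these were HLA-DPA1, GNG2 and PTPRJ (Pearson r of 0.998 each), for ITGA2 TMSB10, PRKCA and CXorf61 (0.999 each), for ITGA10 MFSD6, RIPK4 and MUC5B (0.981, 0.979 and 0.972), and for DDR1 ABCA2, TJP3 and JUP (0.999, 0.998 and 0.998). TJP3 and JUP encode junction proteins of epithelial cells. The lists shared 0 genes with those by Spearman correlation, so the ranking depends on the measure. MUC5B, the mucin named for ITGA10, had a mean of 1.98 cpm in MDA-MB-231 with GFOGER, 96.9 cpm with IKVAV, and 2.05 and 2.29 cpm in T47D cells with GFOGER and IKVAV.

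PELO overlaps ITGA1 in the deposited table, with an entry at chr5:52083774-52098452. In GENCODE on GRCh37 both genes lie on the plus strand and share 499 exon bases, chr5:52083750-52084248, of which 113 lie inside the deposited ITGA1 entry, 2.36% of its length of 4796 bases. PELO had 79.7 to 81.7 cpm with GFOGER and 107 to 111 cpm with IKVAV in MDA-MB-231 cells, a log2 fold change of -0.44 (SE 0.096, adjusted p = 0.00149) beside -2.11 for ITGA1. PELO changed far less than ITGA1, and how reads on the shared bases were assigned is not given in the sources used here. Other entries overlapping a member had at most 3 counts in any library.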

How the data were processed

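The authors sequenced poly(A)-captured RNA, and the submitters' processing notes name FastQC, Trim Galore 0.4.4, TopHat2 2.1.0, SAMtools 1.4, bedtools 2.17, HTSeq 0.6.1p1, edgeR 3.16.5 and the build hg19. The strand option of the counting and the gene annotation are not given in the sources used here. The authors deposited 1 table with unnormalized counts and RPKM per gene for 11 of 12 samples. The deposited RPKM values were used only for the library total they imply, which fell below the counted reads in 5 libraries and above them in 6, with no stated reason. With GFOGER, all MDA-MB-231 libraries lay above and all T47D libraries below, so this split and the cell line cannot be told apart there. With IKVAV, replicate 1 of MDA-MB-231 and replicate 3 of T47D, the T47D library that stood apart, lay below.

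Of 24656 entries, the 1288 that repeat a symbol were left out, keeping the entry on an ordinary chromosome with most counts. The 5 alternate entries of DDR1 had 0 counts. Counts were analysed in R 4.3.3 with edgeR 4.0.16 (TMM, default filter on low counts, quasi-likelihood test, Benjamini-Hochberg adjustment over all genes tested), with calls made at an adjusted p under 0.05 together with a change beyond 1 on the log2 scale in either direction. Each cell line was fitted alone for the peptide comparison, and the 4 groups together for the cell lines and the interaction. Alternatives used DESeq2 1.42.0, other normalization, filters and tests, a replicate block and leaving out libraries. The tests were run on simulated data first.

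The members and gene lists were chosen with earlier results of these data known. Genes named are the members, ITGB1, up to 4 called genes of largest change per list and comparison, the 3 genes most correlated with each tested member, and genes overlapping a member. PDGFRA, DCN, CD3E, CDH5, VWF and, for the peptide comparison, CDH1, ZEB1 and PECAM1 were named as markers of their lists after their values were seen. COL1A1 and COL5A2 were likewise named between the cell lines after their values were seen.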

Additional observations from a re-analysis of the deposited data

Results flagged for a closer look

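The response to GFOGER relative to IKVAV differed between MDA-MB-231 and T47D cells by the interaction test for 4 members. At the same limit of adjusted p below 0.05, 21% of the 15320 genes tested passed. The difference of log2 fold changes was -2.05 for ITGA1, 0.41 for ITGA2, -2.15 for ITGA10 and -1.15 for DDR1 (edgeR quasi-likelihood test, adjusted p from 5.41e-06 to 0.0182). ITGA1 rests on 9 to 17 counts in each T47D library. With the 2-fold threshold inside the test, ITGA1 (adjusted p = 0.0555) and DDR1 were no longer called. The ITGA2 call was lost in 5 of the settings that left out a library (adjusted p 0.0576 to 0.0795) and with a term for the set of RPKM library totals (adjusted p = 0.245).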

How the results depend on the processing

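The counts of members called were 3 for the peptides in MDA-MB-231 and 0 in T47D, 3 and 4 between the cell lines in GFOGER and IKVAV, and 3 for the interaction. With the 2-fold threshold inside the test the interaction count fell to 1, where ITGA1 had an adjusted p of 0.0555 and DDR1 of 1, and the MDA-MB-231 count to 2. Requiring 10 counts in every library gave 2, 3 and 2 for the cell lines and the interaction, as ITGA1 had 9 counts in a T47D library. No filter gave 5 between the lines in IKVAV, and leaving out MDA-MB-231 IKVAV replicate 2 gave 4, 4 and 5 in MDA-MB-231 and between the lines, with ITGA11 added. A lone library left in a group is assumed to vary like the other groups. At any fold change the MDA-MB-231 and interaction counts were 4. The other alternatives gave the same counts. With the replicate block the 5 counts were again 3, 0, 3, 4 and 3. Deviations of same-numbered libraries had correlations of -0.06 to 0.017. These showed no pairing by replicate number, but with so few libraries a weak pairing could not be seen. Directions reversed only for 2 changes in T47D that did not pass the test: ITGA2 was -0.00195 with DESeq2, -0.00197 with RLE normalization, -0.00416 with at least 10 counts in every library, -0.000153 with all 4 groups in 1 fit, and -0.0715 to 0.0611 when a library was left out. ITGA1 was -0.343 to 0.138 when a library was left out and 0.685 with a term for the set of RPKM library totals. With that term, which within T47D sets the GFOGER libraries against IKVAV replicate 3 alone, ITGA10 passed in T47D cells (-0.75, adjusted p = 0.0212) and between the lines in GFOGER (0.58, adjusted p = 0.0211), and the ITGA2 interaction did not (0.26, adjusted p = 0.245). A robust quasi-likelihood fit, added after seeing the data, changed no member call but moved the T47D count over all genes from 6 to 15. Depth limits ITGA11, DDR2 and, in T47D cells, ITGA1.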
